A study of Mus musculus with 16 samples.

Results

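The effect of CCH common to a pair of SAM strains was taken, in the hippocampus, as the mean of the 2 differences between CCH-fed and control animals, one within each strain. All 16 arrays of the series entered, 8 a side, with 4 in each of the 4 groups. SAM, the senescence-accelerated mouse, was selected from AKR/J stock, and SAM/P-8 is a senescence-prone line and SAM/R-1 a senescence-resistant one. All groups were male and 8 weeks old when assigned to a diet. The SAM/P-8 control and SAM/R-1 control groups ate the rodent diet CE-2 for 8 weeks, and the SAM/P-8 CCH and SAM/R-1 CCH groups ate CE-2 with 0.1% CCH, coral calcium hydride, for the same time. The labels number the replicates without saying whether each array was a separate animal, and p-values then refer to the spread among these arrays alone, which may be technical. They give no hour of tissue collection. The 4 groups occupied 4 different slides, and within a strain the diet and the slide cannot be told apart.

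A level here is the log2 signal of a probe on the one-colour array minus the 75th percentile of that array, so a negative level is dimmer than that percentile, and levels of different genes cannot be set against each other. A difference is CCH minus control on the log2 scale, given with its standard error from limma, and the average over the strains rests on 8 arrays a side. Of 41174 probes, 26418 passed the scanner's background flag on each of the 16 arrays and 26416 of them could be fitted, standing for 12754 named genes by their brightest probe. Of 693 entries in 34 gene lists 623 passed this filter, and a list's counts are over its tested members. Between 28920 and 33333 of 43379 non-control spots were well above background on an array. The share averaged 71.07% with CCH and 68.45% without in SAM/P-8, and 73.86% and 71.81% in SAM/R-1. The part of this in the differences was not tested. Precision is limited by the number of arrays. Replicates of a group correlated between 0.988 and 0.998. All 16 markers of excitatory hippocampal neurons that the array names were well above background on every array. Among them were Prox1 of the dentate gyrus and Wfs1 of area CA1. So were 12754 of all 17178 genes that the array names, and 13 of 14 markers of neocortex and thalamus. This flag therefore does not identify the tissue.

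Some arrays stood apart in markers of neighbouring tissue or blood. Array 4 of SAM/P-8 CCH had a striatum score of 3.53, while the rest ranged from -0.68 to 0.24, where a score averages a list's genes, each centred on its mean over the 16 arrays. Arrays 1 and 2 of SAM/P-8 control had red blood cell scores of 1.16 and 1.76, against -0.71 to 0.19 elsewhere. Choroid plexus scores spread from -2.80 to 1.70 and varied widely within every group. In such bulk tissue, fewer cells of a type and less RNA per cell cannot be told apart.

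Across the genome the shared differences were small and numerous. In the average, 633 probes (2.40%) rose and 647 (2.45%) fell at an adjusted p under 0.05 by limma with Benjamini-Hochberg adjustment over all probes tested. By gene these were 245 (1.92%) higher and 371 (2.91%) lower, 616 (4.83%) in all. The median size among the 1280 probes called was 0.23, with 36 at 1.5-fold or more and 8 at 2-fold or more. Of the 1280, 1266 had the same sign in both strains, against 67.2% of all probes. Calling on the average itself favours probes with the same sign, so this count is largely set by that choice. With each slide reduced to 1 value, which leaves 1 residual degree of freedom, limma called 0 probes, and 4732 probes (17.9%) had an unadjusted p under 0.05. Leaving out 1 array moved the count of higher probes to between 156 (without SAM/P-8 control 3) and 940 (without SAM/P-8 control 1), and that of lower probes to between 106 and 1266 for the same arrays.

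The strains share no arrays, so each can be set beside the other. Within SAM/P-8 alone 118 probes rose (0.447%) and 97 fell (0.367%), and within SAM/R-1 alone 1 rose (0.00379%) and 16 fell (0.0606%). Of the 118 probes that rose in SAM/P-8, 110 had positive differences in SAM/R-1, and in 43 all CCH arrays of SAM/R-1 lay above all its controls, as in 3.93% of all probes. Of the 97 that fell in SAM/P-8, 85 had negative differences in SAM/R-1, and 27 did not overlap there, against 4.60% of all probes. Over all probes and both directions together, 67.2% had the same sign in both strains. Over all 26416 probes the differences of the 2 strains correlated at r = 0.42 (Spearman's rho = 0.45), which describes probes of the same arrays and not independent replicates. Full separation within 1 strain was found upward for 4.31% and downward for 5.57% of probes in SAM/P-8. No overlap within either strain was found for 168 probes in the upward direction (0.636%), for 190 in the downward direction (0.719%) and for 9 in opposite directions (0.0341%). The test of the difference between the strains called 17 probes (0.0644%).

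**Figure D1:**
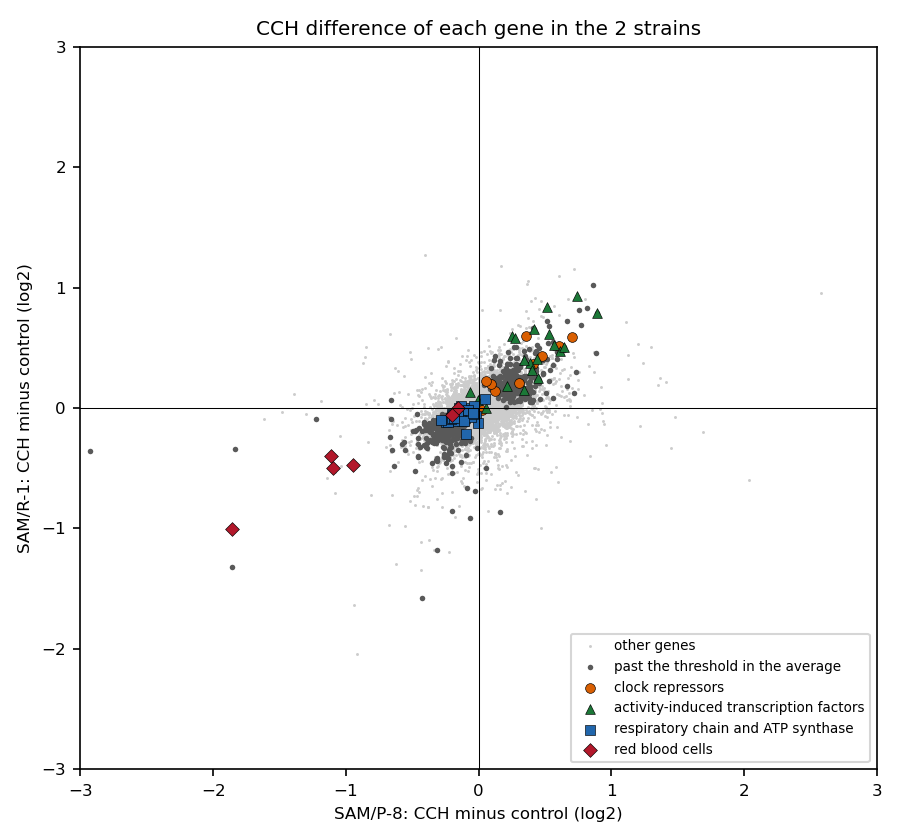
Difference between CCH and control (log2) of each of 12754 genes in SAM/P-8 (horizontal axis) and in SAM/R-1 (vertical axis), with genes past the threshold in the average in dark grey and 4 gene lists in colour. Clock repressors and activity-induced transcription factors lie at the upper right, respiratory chain genes close to the centre at the lower left, and 4 red blood cell genes far to the lower left.

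The mammalian circadian clock is a feedback loop: CLOCK and BMAL1 (Arntl) switch on Per and Cry genes through E-boxes in their promoters, and the PER and CRY proteins then repress CLOCK and BMAL1. In the hippocampus the loop runs under the influence of the brain's central clock, and some of its genes also answer to neuronal activity and glucocorticoids. In the average over the strains, of 10 clock repressors tested 7 rose and 0 fell, against 1.92% of all genes higher. Differences were positive in both strains for 9 of 10, against 27.6% of all genes, with a median of 0.32 where the median of all genes was -0.02. Within SAM/P-8 alone Ciart and Per1 passed the threshold, and within SAM/R-1 alone none did, the smallest adjusted p being 0.0895 (Per2). In 5 of 10 the CCH and control arrays did not overlap in either strain, as in 0.565% of all genes. The clock repressors' score lay between 0.09 and 0.26 on the 8 CCH arrays and between -0.29 and -0.06 on the 8 control arrays, with no overlap.

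Cry1, which encodes a cryptochrome, had the largest difference of the list, on a dim probe (mean level -4.52). Its levels in SAM/P-8 were -4.19, -4.26, -3.90 and -3.73 with CCH and -4.41, -4.64, -5.12 and -4.71 without. In SAM/R-1 they were -4.14, -4.77, -4.24 and -4.39 with CCH and -5.09, -5.01, -4.78 and -5.02 without. The groups did not overlap in either strain, although array 2 of SAM/R-1 CCH barely exceeded the highest control, and the average rose 1.56-fold (0.64 ± 0.11, adjusted p = 0.0131, limma). Ciart, a repressor that binds the BMAL1 complex, stood in SAM/P-8 at -1.36, -1.37, -1.17 and -1.39 with CCH and at -1.73, -1.90, -2.16 and -1.93 without. In SAM/R-1 Ciart stood at -0.97, -0.69, -1.04 and -0.93 with CCH and at -1.33, -1.29, -1.37 and -1.69 without. All 4 CCH arrays lay above all 4 controls in both strains, and the average rose 1.48-fold (0.56 ± 0.07, adjusted p = 0.00471). Ciart had the smallest adjusted p of the list and was called in SAM/P-8 alone (adjusted p = 0.0212).

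Per1 and Per2 encode the period proteins, the partners of the cryptochromes. Per1 read 2.99, 2.66, 3.00 and 2.82 with CCH in SAM/P-8 against 2.65, 2.15, 2.28 and 2.47 in its controls. In SAM/R-1 it read 2.70, 2.99, 2.94 and 2.88 against 2.54, 2.50, 2.45 and 2.30, again without overlap. The rise was of nearly the same size in the strains, 0.48 ± 0.11 and 0.43 ± 0.11, and 0.45 ± 0.07 on average (adjusted p = 0.0102). Per2 read 0.28, 0.05, 0.41 and 0.13 with CCH in SAM/P-8 against 0.00, -0.12, -0.21 and -0.23. SAM/R-1 arrays gave 0.11, -0.27, 0.36 and 0.13 against -0.36, -0.46, -0.61 and -0.63. Per2 rose by 0.48 ± 0.08 (adjusted p = 0.0114), without overlap in either strain. Its other probe did not bear this out, with 0.01 ± 0.28. The call of Cry1, Ciart, Per1 and Per2 was kept when any 1 array was left out.

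The third period gene Per3 (0.39 ± 0.09), the basic helix-loop-helix repressor Bhlhe41 (0.26 ± 0.06) and Cry2 (0.13 ± 0.04) also rose, the latter with an adjusted p of 0.0477. Cry2 lost its call when any of 14 of the 16 arrays was left out, and Per3 with any of 8. The remaining repressors did not pass: Nr1d2 had 0.14 ± 0.05 and Bhlhe40 0.15 ± 0.08. Nr1d1, which encodes the nuclear receptor REV-ERB alpha that represses Arntl, had 0.01 ± 0.06. The count of 7 fell to 4 without SAM/P-8 control 3, SAM/R-1 CCH 3, SAM/R-1 CCH 4 or SAM/R-1 control 4, and also without the pair of blood-rich controls, an alternative chosen after seeing the data. The count was 4 with normexp background correction and 0 with each slide reduced to 1 value. It stood at 7 without the array high in striatum genes.

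Among activators and output genes of the clock, of 14 tested 1 rose and 0 fell, against 1.92% of all genes higher, with a median of 0.07. The gene that rose was Hlf, a PAR-domain transcription factor driven by the clock, at 0.39 ± 0.09 (adjusted p = 0.0320), and it lost its call when any of 9 of the 16 arrays was left out. Its relative Dbp had 0.27 ± 0.08 and missed the threshold (adjusted p = 0.0563). The activators Arntl and Clock had -0.06 ± 0.06 and -0.03 ± 0.05, and the kinases Csnk1d and Csnk1e, which phosphorylate the period proteins, had differences of 0.00 each. Whether the repressors differed from the activators was not tested.

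Promoters of clock repressors are shown because Ciart, Per1 and Cry1 hold the E-box CACGTG, a site of CLOCK and BMAL1, before their start. Each line gives the 250 bases before an annotated start of the gene, 5′ to 3′ on the strand of the gene, from RefSeq on build GRCm38.p6, with each E-box in capitals.
Ciart, chr3:95882229-95882478, minus strand: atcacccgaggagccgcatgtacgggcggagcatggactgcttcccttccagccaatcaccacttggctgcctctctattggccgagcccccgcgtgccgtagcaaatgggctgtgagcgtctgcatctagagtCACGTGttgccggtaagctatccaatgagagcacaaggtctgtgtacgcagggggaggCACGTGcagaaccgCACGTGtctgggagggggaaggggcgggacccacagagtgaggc
Per1, chr11:69098699-69098948, plus strand: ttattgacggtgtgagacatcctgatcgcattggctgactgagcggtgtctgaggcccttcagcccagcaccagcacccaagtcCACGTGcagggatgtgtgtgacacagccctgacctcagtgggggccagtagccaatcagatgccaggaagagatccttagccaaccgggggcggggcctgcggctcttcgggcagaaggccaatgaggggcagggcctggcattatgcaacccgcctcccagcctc
Cry1, chr10:85185055-85185304, minus strand: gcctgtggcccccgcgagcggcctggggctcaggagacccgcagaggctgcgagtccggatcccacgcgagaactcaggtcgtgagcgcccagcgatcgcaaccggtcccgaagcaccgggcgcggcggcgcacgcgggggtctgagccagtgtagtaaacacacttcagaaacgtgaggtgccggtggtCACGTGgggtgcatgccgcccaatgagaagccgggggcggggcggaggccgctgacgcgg
Ciart has 3 E-boxes, at 116, 58 and 44 bases before the start. Per1 has 1 at 166 bases and Cry1 has 1 at 60 bases. The search used CACGTG, which reads the same on both strands. It was found in 4 of the 8 repressors with an entry (Ciart, Per1, Cry1 and Bhlhe41) and in 6.86% of 27025 genes, counting a gene when any of its windows held it. Per2 and Bhlhe40 had no entry. Per3, Cry2, Nr1d1 and Nr1d2 had no CACGTG in this window.

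Immediate early genes are transcription factors and effectors that neurons switch on within minutes of activity, through CREB and serum response factor, and in the hippocampus they mark recently active cells. In the average over the strains, of 20 activity-induced transcription factors 9 rose and 0 fell, against 1.92% of all genes higher, and the median was 0.43. Differences were positive in both strains for 18 of 20, against 27.6% of all genes. Within a single strain none of the 20 passed the threshold. In 0 of 20 did the arrays separate fully in both strains, against 0.565% of all genes upward and 0.996% downward. Array 2 of SAM/P-8 CCH had a score of -0.05 and array 1 of SAM/R-1 CCH one of -0.07, while the other 6 CCH arrays lay between 0.15 and 0.43. The 8 control arrays lay between -0.48 and -0.03, with array 1 the highest in each strain (-0.03 in SAM/P-8 and -0.05 in SAM/R-1). Each of those 2 CCH arrays lay below that control of its strain and above the others.

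Egr2, a zinc finger factor, had the largest difference among the list's called genes. Its levels with CCH were 1.24, 0.91, 1.54 and 1.96 in SAM/P-8, against 0.84, 0.00, 0.58 and 0.67 in the controls, without overlap. In SAM/R-1 they were 0.59, 1.27, 2.19 and 1.33 with CCH and 0.82, 0.45, 0.62 and 0.32 without, where the first CCH array lay among the controls. Egr2 rose 1.79-fold (0.84 ± 0.20, adjusted p = 0.0350). Its relative Egr4 read 4.65, 4.49, 4.85 and 4.98 with CCH in SAM/P-8 against 4.26, 3.89, 4.07 and 4.18 without. The SAM/R-1 levels were 4.34, 4.68, 5.01 and 4.85 against 4.44, 4.17, 4.34 and 3.91. Egr4 rose by 0.57 ± 0.11 (adjusted p = 0.0145) and was the only one of the 9 called factors that kept its call whichever array was left out.

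Nr4a1, an orphan nuclear receptor, read 5.66, 5.28, 5.78 and 5.92 with CCH in SAM/P-8 against 5.30, 4.68, 4.99 and 5.21 in the controls. In SAM/R-1 it read 5.18, 5.73, 5.74 and 5.65 against 5.40, 4.997, 5.08 and 4.95. In each strain 1 CCH array lay below the highest control, and the rise was 0.54 ± 0.12 (adjusted p = 0.0259). Fos, the AP-1 subunit most used as a mark of active neurons, read 0.58, 0.07, 0.52 and 0.28 with CCH in SAM/P-8 against 0.24, -0.49, -0.12 and 0.16. In SAM/R-1 Fos read 0.06, 0.96, 0.87 and 0.49 against 0.13, -0.16, 0.05 and -0.28. Its rise was 0.54 ± 0.14 (adjusted p = 0.0417), with overlap in both strains. Egr1 (0.43 ± 0.11), Junb (0.38 ± 0.08), Fosl2 (0.37 ± 0.10), Ier5 (0.36 ± 0.08) and Klf10 (0.35 ± 0.09) rose as well. Egr2, Fos, Egr1, Fosl2 and Klf10 each lost their call when any of at least 10 of the 16 arrays was left out.

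Members past no threshold included Maff (0.84 ± 0.23, adjusted p = 0.0526) and Npas4, a factor specific to neuronal activity (0.57 ± 0.17, adjusted p = 0.0622). Jun, Jund and Ier2 each had 0.03. The other probe of Fosl2 had -0.24 ± 0.16. Leaving out 1 array moved the count of 9 to between 1 and 12: it was 1 without SAM/P-8 control 2, SAM/P-8 control 3 or SAM/R-1 CCH 3. It was 2 without SAM/P-8 CCH 1 or SAM/R-1 control 3, and 4 without SAM/P-8 CCH 3, SAM/R-1 CCH 4, SAM/R-1 control 2 or SAM/R-1 control 4. The count was 6 without SAM/P-8 CCH 4, 1 without the pair of blood-rich controls and 0 with normexp background correction. The differences of the list remained positive in 19 of 20 without that pair.

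Among activity-induced effectors, 2 of 23 rose and 0 fell, against 1.92% of all genes higher, with a median of 0.20 and positive differences in both strains for 17, against 27.6% of all genes. Arc, the scaffold that removes glutamate receptors from synapses, read 5.83, 5.19, 5.74 and 5.40 with CCH in SAM/P-8 against 5.08, 4.69, 4.90 and 5.22. SAM/R-1 arrays gave 4.996, 5.53, 5.81 and 5.46 against 5.21, 4.77, 4.77 and 4.85. Arc rose by 0.56 ± 0.13 (adjusted p = 0.0289), with 1 CCH array of each strain among the controls. The other effector past the threshold was Per1, described above. Bdnf, the neurotrophin, had -0.02 ± 0.09, and Homer1 had -0.03 ± 0.07. Probes of Homer1 disagreed: its others had 0.24 ± 0.05 (adjusted p = 0.0241) and 0.15 ± 0.06 (adjusted p = 0.123). Less bright probes of Gadd45b and Btg2 passed too, at 0.32 ± 0.09 and 0.43 ± 0.10. Arc lost its call when any of 7 of the 16 arrays was left out, and the count lay between 1 and 4.

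**Figure D2:**
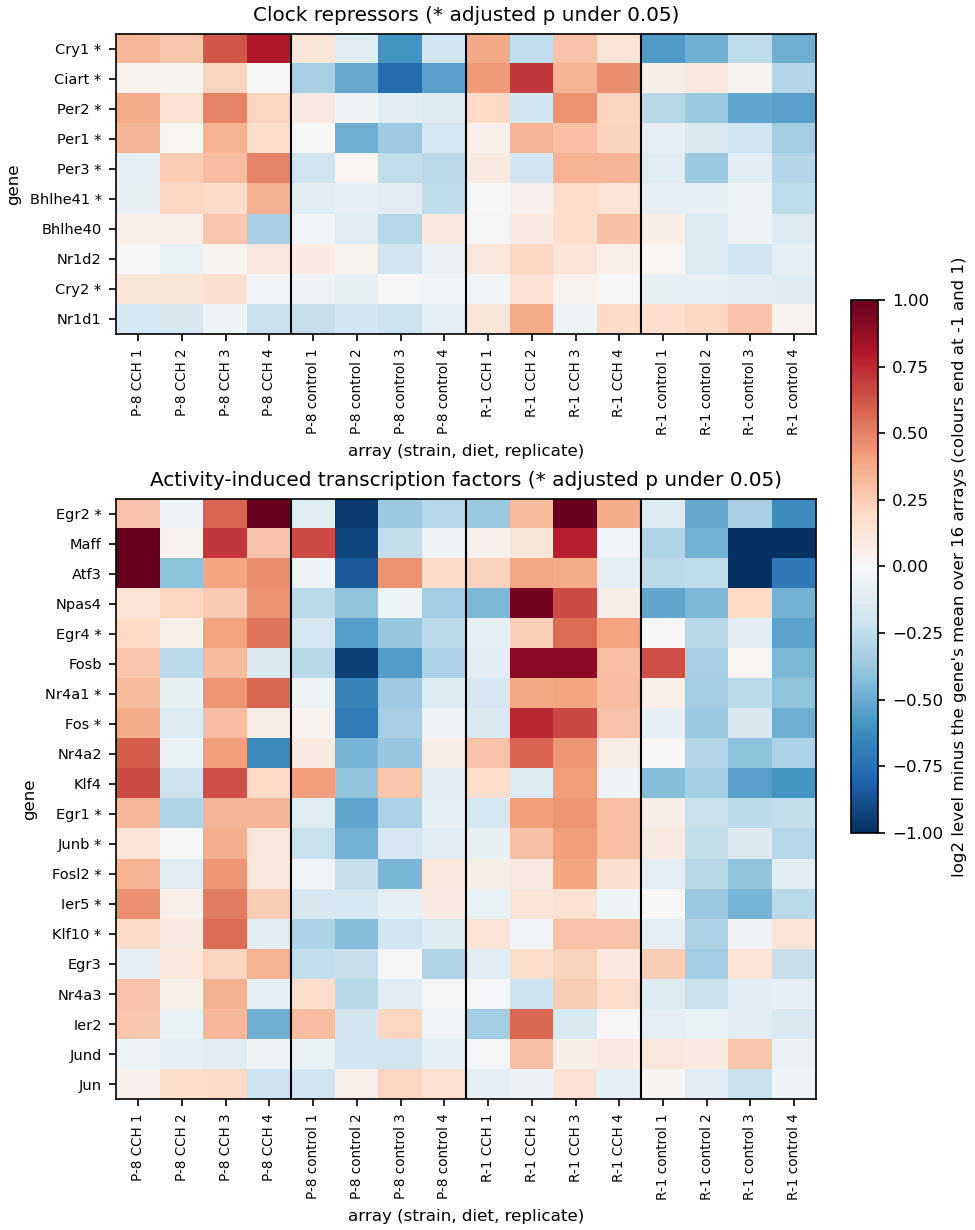
Log2 level of each clock repressor (upper panel) and activity-induced transcription factor (lower panel) on each of the 16 arrays, minus the mean of the gene over the arrays, with colours ending at -1 and 1. Most CCH columns are redder than the control columns in both strains, Nr1d1, Jun and Jund excepted, and the second SAM/P-8 CCH array and the first SAM/R-1 CCH array are paler in the lower panel.

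Promoters of 3 of these factors are shown because CREB acts through the cAMP response element, whose core is TGACG. Lines are as above, with each core in capitals on either strand (CGTCA is its reverse complement).
Egr4, chr6:85513590-85513839, minus strand: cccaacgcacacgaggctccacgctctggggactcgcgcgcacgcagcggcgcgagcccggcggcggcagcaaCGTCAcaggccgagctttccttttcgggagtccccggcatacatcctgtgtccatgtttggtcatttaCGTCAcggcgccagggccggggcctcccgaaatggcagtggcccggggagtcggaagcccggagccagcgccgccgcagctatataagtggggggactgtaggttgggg
Nr4a1, chr15:101266596-101266845, plus strand: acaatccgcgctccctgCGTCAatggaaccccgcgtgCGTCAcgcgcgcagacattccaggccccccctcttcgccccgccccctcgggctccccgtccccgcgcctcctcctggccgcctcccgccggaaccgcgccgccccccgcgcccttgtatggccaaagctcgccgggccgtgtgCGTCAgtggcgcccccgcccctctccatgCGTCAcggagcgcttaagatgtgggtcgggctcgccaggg
Fos, chr12:85473640-85473889, plus strand: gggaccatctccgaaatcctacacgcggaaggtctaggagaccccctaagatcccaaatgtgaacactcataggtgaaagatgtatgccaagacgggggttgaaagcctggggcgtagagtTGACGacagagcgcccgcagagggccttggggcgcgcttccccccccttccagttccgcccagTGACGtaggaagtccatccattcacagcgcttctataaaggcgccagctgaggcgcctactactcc
Egr4 has 2 cores, at 177 and 109 bases before the start. Nr4a1 has 4, the nearest at 40 bases, and Fos has 2, at 129 and 66 bases. Of 16 factors with an entry, 12 held a core, against 19.8% of 27025 genes. Egr1, Egr3, Ier2 and Klf10 had no entry. In Egr2 and Maff it lay in windows of an annotated start other than the first one listed. None of the E-boxes or cores marked here overlapped another of the motifs searched.

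Cytosolic chaperones of the heat shock response refold proteins and are switched on by HSF1, and their list here also holds the mitochondrial chaperones Hspd1 and Hspe1. Of 18 tested, 1 rose and 0 fell, against 1.92% of all genes higher, with a median of 0.10. The count lay between 0 and 4 when 1 array was left out. Less bright probes of 5 of them rose (Dnaja1, Hspa1a, Hspa1b, Hsp90ab1 and Dnajb1). Hspa1b, an inducible HSP70, read 2.57, 1.14, 1.497 and 2.26 with CCH in SAM/P-8 against 0.81, 0.49, 1.58 and 1.15. The SAM/R-1 levels were 1.49, 1.10, 2.27 and 1.30 against 0.82, 0.42, 0.17 and 0.67, without overlap. Hspa1b rose 1.92-fold (0.94 ± 0.23, adjusted p = 0.0341). Its neighbour and near copy Hspa1a had 0.79 ± 0.22 (adjusted p = 0.0526) by the brightest probe and 0.82 ± 0.21 (adjusted p = 0.0412) by another, and probes of such copies may not tell them apart. The co-chaperone Dnajb1 had 0.44 ± 0.14 (adjusted p = 0.0814), with 0.52 ± 0.12 (adjusted p = 0.0320) by its other probe, and the small heat shock protein Hspb1 had 0.68 ± 0.22 (adjusted p = 0.0865).

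The other probe of Hspa1b had 0.88 ± 0.23 (adjusted p = 0.0417). Hspa8 had 0.02 ± 0.05 by its brightest probe and 0.13 ± 0.05 (adjusted p = 0.137) by another, and Hsp90aa1 had 0.01 ± 0.04. Probes disagreed for Hsp90ab1, at 0.10 ± 0.04 (adjusted p = 0.175) by the brightest and 0.25 ± 0.04 (adjusted p = 0.0110) by another. They disagreed for the co-chaperone Dnaja1 too, at 0.07 ± 0.04 (adjusted p = 0.289) and 0.25 ± 0.06 (adjusted p = 0.0309). Hspa1b lost its call when any of 9 of the 16 arrays was left out, and had 0.76 (adjusted p = 0.105) without the blood-rich controls. Its promoter is shown because it holds a paired heat shock element, GAANNTTC, in capitals.
Hspa1b, chr17:34959239-34959488, minus strand: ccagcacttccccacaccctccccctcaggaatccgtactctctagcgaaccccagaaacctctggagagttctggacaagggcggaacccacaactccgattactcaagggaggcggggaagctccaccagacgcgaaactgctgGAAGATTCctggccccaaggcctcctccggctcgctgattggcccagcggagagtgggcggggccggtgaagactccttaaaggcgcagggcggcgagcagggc
The element lies 104 bases before the start. The windows of Hspa1a and Hspa1b were identical at 247 of 250 positions. GAANNTTC, which reads the same on both strands, was in 6 of 14 heat shock genes with an entry and in 7.73% of 27025 genes. The 6 include Hspd1, Hspe1 and the near copies Hspa1a and Hspa1b, which are not independent of each other.

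Glucocorticoids reach the hippocampus in a daily rhythm and with stress, and their receptor switches on a known set of genes. Of 14 glucocorticoid-responsive genes 3 rose and 0 fell, against 1.92% of all genes higher, with a median of 0.11. Per1 also stands in the lists of clock repressors and effectors, and the count lay between 1 and 3 when 1 array was left out. They were Per1, the leucine zipper gene Tsc22d3 (0.29 ± 0.08, adjusted p = 0.0474) and Pdk4, a kinase that restrains pyruvate dehydrogenase (0.27 ± 0.07, adjusted p = 0.0470). Fkbp5, a chaperone of the receptor, had -0.11 ± 0.08 by its brightest probe and 0.13 ± 0.06 and 0.09 ± 0.07 by others, none past the threshold. In the unfolded protein response 1 of 19 genes rose, the transcription factor Xbp1 (0.21 ± 0.06, adjusted p = 0.0484), with 0.09 in SAM/P-8 and 0.33 in SAM/R-1. By these probes Tsc22d3, Pdk4 and Xbp1 each lost their call when any of at least 13 of the 16 arrays was left out. Another probe of Tsc22d3 rose by 0.44 ± 0.07 (adjusted p = 0.0102), without overlap in either strain.

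**Figure D3:**
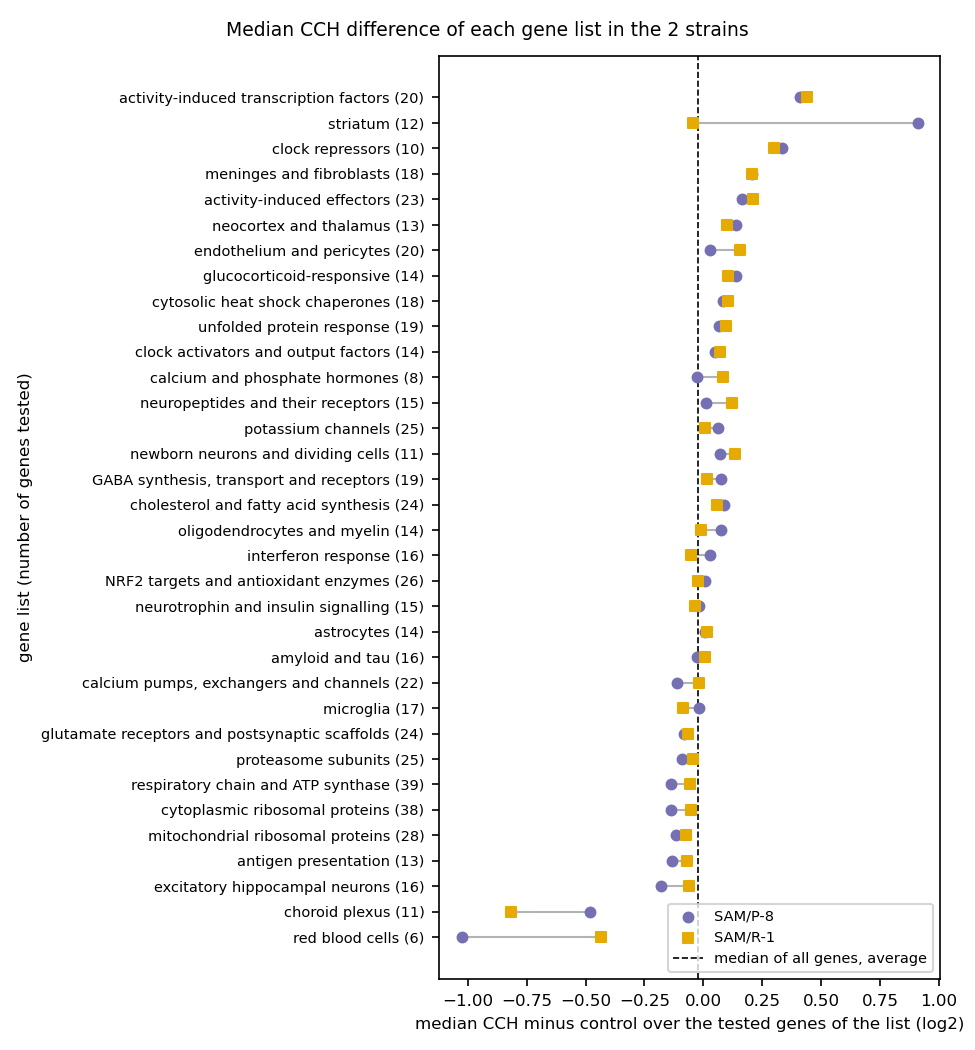
Median difference between CCH and control (log2) over the tested genes of each of 34 lists, in SAM/P-8 (circles) and SAM/R-1 (squares), with the number of genes in brackets and the median of all genes dashed. Activity-induced transcription factors and clock repressors are at the right in both strains, choroid plexus and red blood cells at the left, and the striatum list is at the right in SAM/P-8 only.

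The largest increases without overlap in either strain led with Sik2, a salt-inducible kinase that phosphorylates the CREB coactivators. Sik2 read -2.40, -2.50, -2.60 and -2.18 with CCH in SAM/P-8 against -2.90, -3.45, -3.53 and -2.89. In SAM/R-1 it read -2.54, -2.62, -2.41 and -2.53 against -2.65, -3.10, -3.54 and -3.57. All CCH arrays lay above all controls of their strain, and Sik2 rose 1.66-fold (0.73 ± 0.14, adjusted p = 0.0153). Beside the clock genes, the zinc finger gene Zfp516 rose by 0.56 ± 0.09, and Lrrc8c, a subunit of the volume-regulated anion channel, by 0.46 ± 0.07. Papss2, which makes the sulfate donor PAPS, rose by 0.43 ± 0.08. The probes of Zfp516 and Papss2 were dim, with mean levels of -4.51 and -4.10.

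Other increases without overlap were of single genes, and a function common to them was not tested. Plk4, the kinase of centriole duplication, rose by 0.44 ± 0.08 on a dim probe (mean level -4.45). The kinetochore gene Zwint rose by 0.39 ± 0.05, where its other probe had 0.17 ± 0.07 (adjusted p = 0.133). P4ha1, which hydroxylates collagen, rose by 0.39 ± 0.07, and Timp2, an inhibitor of metalloproteinases, by 0.35 ± 0.08. Sox7, a transcription factor of endothelium, rose by 0.38 ± 0.09 and lost its call when any of 11 of the 16 arrays was left out. Ier5l and the zinc finger gene Zscan20 rose by 0.34 each. With overlap in SAM/P-8, and chosen after their values were seen, the small GTPase Gem rose by 0.82 ± 0.18 (adjusted p = 0.0270) and fibronectin, Fn1, by 0.62 ± 0.13 (adjusted p = 0.0254).

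Genes of cholesterol synthesis, which answer to SREBP2, rose in part. Of 24 genes of cholesterol and fatty acid synthesis 4 rose and 0 fell, against 1.92% of all genes higher, with a median of 0.04. Insig1, which holds SREBP2 in the endoplasmic reticulum, read -1.90, -1.73, -1.77 and -1.74 with CCH in SAM/P-8 against -2.22, -2.12, -2.29 and -2.25. SAM/R-1 arrays gave -1.76, -2.07, -1.87 and -1.83 against -2.00, -2.34, -2.09 and -2.04. The arrays separated in SAM/P-8 and overlapped through 1 array in SAM/R-1, and Insig1 rose by 0.33 ± 0.06 (adjusted p = 0.0111). Also higher were lanosterol synthase Lss (0.26 ± 0.06; 0.23 ± 0.05 by another probe) and lanosterol demethylase Cyp51 (0.23 ± 0.06; 0.30 ± 0.06 and 0.34 ± 0.07 by others). The fatty acid synthase Fasn had -0.06 ± 0.05. The other probe of Insig1 had 0.17 ± 0.07 (adjusted p = 0.175). The count for cholesterol and fatty acid synthesis was 1 with normexp background correction and 2 without SAM/P-8 CCH 1, SAM/P-8 control 2, SAM/P-8 control 3 or the pair of blood-rich controls.

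Among genes, 127 (0.996%) had CCH arrays below the controls without overlap in both strains. The largest such decrease past the threshold was in Slc4a1, band 3, the anion exchanger of red blood cells. It read -4.18, -4.15, -3.71 and -3.69 with CCH in SAM/P-8 against -0.95, -0.62, -3.48 and -3.25. The SAM/R-1 levels were -4.47, -4.83, -4.15 and -4.05 against -3.72, -3.05, -3.08 and -3.65. The average fell by 1.43 ± 0.36 (adjusted p = 0.0398), and without the pair of blood-rich controls, whose levels stood far above the rest, by 0.78 (adjusted p = 0.0402). The call was lost when any of 12 of the 16 arrays was left out. Of 6 red blood cell genes 1 fell, against 2.91% of all genes lower, and 5 had negative differences in both strains, against 41.3%. Alas2 had -0.80, Hba-a1 -0.76 and Hbb-bt -0.71, none past the threshold. Also high in the SAM/P-8 controls was S100a9, a calcium-binding protein of neutrophils, chosen after its values were seen. Its levels in SAM/P-8 were -2.76, -1.67, -1.97 and -3.13 with CCH against 0.44, -0.02, -0.78 and -1.74, and in SAM/R-1 they were -3.77, -5.62, -2.43 and -4.65 against -2.47, -2.45, -2.55 and -3.72. One CCH array of each strain overlapped the controls. S100a9 fell by 1.59 ± 0.43 (adjusted p = 0.0474), with -1.22 (adjusted p = 0.144) when the blood-rich controls were left out. The part of blood in the other differences was not tested.

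Decreases in genes of the nervous system were smaller. Klk8, neuropsin, a secreted protease of hippocampal neurons, read 0.67, 0.90, 0.96 and 0.18 with CCH in SAM/P-8 against 1.14, 1.43, 1.497 and 1.24. In SAM/R-1 it read 0.77, 0.88, 0.83 and 0.91 against 1.06, 1.13, 1.13 and 1.46. Klk8 fell by 0.50 ± 0.10 (adjusted p = 0.0214), all CCH arrays lying below all controls of their strain. Mt3, the metallothionein of brain that binds zinc and copper, read 2.09, 2.22, 2.23 and 1.95 with CCH in SAM/P-8 against 2.40, 2.53, 2.59 and 2.31. In SAM/R-1 Mt3 read 1.76, 1.65, 1.72 and 1.71 against 1.87, 1.98, 1.96 and 1.99. It fell by 0.29 ± 0.05 (adjusted p = 0.0122), again without overlap.

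Tfrc, the transferrin receptor that takes up iron, fell by 0.31 ± 0.07 (adjusted p = 0.0264). Its levels with CCH spanned -1.002 to -0.53 in SAM/P-8 and -0.63 to -0.40 in SAM/R-1, all below the controls of their strain. Otos fell by 0.56 ± 0.12, Mdga1, which binds neuroligins at synapses, by 0.35 ± 0.08, and the glycosyltransferase gene Galnt17 by 0.34 ± 0.08. The membrane metalloproteinase gene Mmp14 fell by 0.30 ± 0.07 and Rad52, of DNA repair, by 0.34 ± 0.05. Less bright probes of Galnt17 and Rad52 did not pass, at -0.25 ± 0.09 (adjusted p = 0.115) and -0.16 ± 0.05 (adjusted p = 0.0707). The cytosolic DNA sensor gene Cgas and the thromboxane receptor gene Tbxa2r fell by 0.28 each, with -0.04 each under normexp background correction. The other decreases that the naming rule gave were of dim probes, Cdhr5, Pyy, Tmc8 and Defb3, by 0.29 to 0.36. All 4 turned positive, at 0.06 to 0.17, with normexp background correction, and are uncertain for that.

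Genes of mitochondria and ribosomes had small negative differences. Respiratory chain and ATP synthase genes had 8 of 39 lower and 0 higher, against 2.91% of all genes lower, with a median of -0.10 and negative differences in both strains for 35 of 39, against 41.3% of all genes. The largest falls were of the complex I subunits Ndufa2 (0.19 ± 0.03, adjusted p = 0.0102) and Ndufa5 (0.18 ± 0.03, adjusted p = 0.00952). Those of the cytochrome oxidase subunit Cox7a2 (0.18 ± 0.04) and of Ndufa4 (0.15 ± 0.03) followed. Sdha, a subunit of complex II, had 0.06 ± 0.05. Cytoplasmic ribosomal protein genes had 7 of 38 lower, led by Rps19 (-0.18 ± 0.04), and 32 of 38 were negative in both strains. Mitochondrial ribosomal protein genes had 6 of 28 lower, led by Mrpl51 (-0.17 ± 0.03), and the proteasome had 2 of 25, Psmb7 (-0.21 ± 0.05) and Psmc5 (-0.16 ± 0.04). Another probe of Psmc5 had -0.02 ± 0.05 (adjusted p = 0.811).

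These lists hold bright genes, and the difference moved with brightness over all genes, though not steadily from the dimmest class. With genes split into 10 classes of brightness, in class 10, the brightest, the median was -0.06, with -0.09 in SAM/P-8 and -0.03 in SAM/R-1, and 61.4% were negative in both strains. In class 3 it was 0.02, with 31.0% negative in both. In class 1, the dimmest, it was -0.02, with 0.01 in SAM/P-8 and -0.05 in SAM/R-1. The part of brightness in the falls was not tested. The respiratory chain and ATP synthase count was 1 under quantile normalization, 2 with normexp background correction, 3 under median scaling and without the pair of blood-rich controls, 15 without SAM/P-8 control 1 and 4 without SAM/P-8 control 3 or SAM/R-1 CCH 1. It was 5 without SAM/P-8 CCH 1, SAM/P-8 CCH 3, SAM/P-8 control 2, SAM/R-1 CCH 3, SAM/R-1 CCH 4, SAM/R-1 control 2, SAM/R-1 control 3 or SAM/R-1 control 4. Its median stayed negative in the result and all alternatives run, between -0.14 and -0.04. The cytoplasmic ribosomal proteins' count was 0 under median scaling and with normexp background correction, 1 under quantile normalization, where 12 of 38 were positive, and between 0 (without SAM/P-8 control 3, for one) and 15 (without SAM/P-8 control 1) when 1 array was left out. That of mitochondrial ribosomal proteins lay between 1 and 9, for the same arrays, and was 0 without the pair of blood-rich controls.

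**Figure D4:**
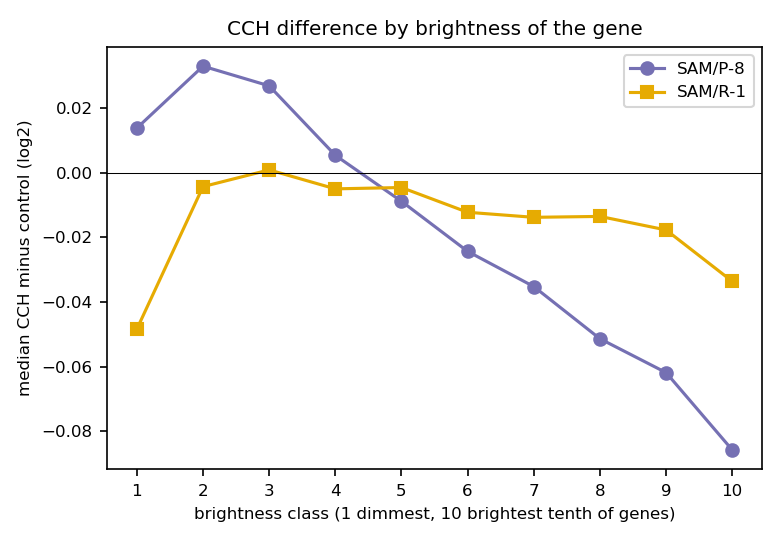
Median difference between CCH and control (log2) of genes in 10 classes of mean brightness, from dimmest to brightest, in SAM/P-8 (circles) and SAM/R-1 (squares). From class 3 to class 10 the SAM/P-8 median goes from 0.03 to -0.09 and that of SAM/R-1 from 0.00 to -0.03. Class 1 has 0.01 in SAM/P-8 and -0.05 in SAM/R-1.

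Because CCH is a source of calcium and of hydride, genes that handle calcium and reactive oxygen were listed. Of 22 tested calcium pumps, exchangers and channels 0 rose and 1 fell, against 1.92% of all genes higher and 2.91% lower. It was the P/Q-type channel subunit Cacna1a (-0.26 ± 0.07, adjusted p = 0.0419), where another probe had -0.06 ± 0.05 (adjusted p = 0.530). Of 8 tested hormones and transporters of calcium and phosphate, the vitamin D 1-alpha hydroxylase gene Cyp27b1 fell by 0.26 ± 0.06 (adjusted p = 0.0377), on a dim probe that turned to 0.16 with normexp background correction. Cacna1a and Cyp27b1 lost their calls when any of 11 and of 13 of the 16 arrays was left out. Stc1, stanniocalcin, passed the average at -0.29 ± 0.06 but was not shared: it had -0.66 ± 0.08 in SAM/P-8 and 0.07 ± 0.08 in SAM/R-1, and the strains differed by -0.73 (adjusted p = 0.0246).

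Among 26 targets of NRF2, the regulator of antioxidant defence, and antioxidant enzymes, limma called 0 in either direction, with a median of -0.01. The smallest p-values were those of the peroxiredoxin Prdx2 (-0.10 ± 0.03, adjusted p = 0.0776) and of Gclm, a subunit of the enzyme for glutathione synthesis (0.16 ± 0.06, adjusted p = 0.109). At an unadjusted p under 0.05 there were 6. By the brightest probe of Prdx2 all CCH arrays lay below all controls of their strain. Less bright probes of Prdx2 had -0.04 ± 0.04 (adjusted p = 0.524) and -0.12 ± 0.04 (adjusted p = 0.0879), each with overlap in SAM/P-8.

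Of 24 glutamate receptors and postsynaptic scaffolds 12 were negative in both strains, against 41.3% of all genes, and 3 fell, against 2.91% of all genes lower: the kainate receptor subunits Grik4 (-0.38 ± 0.09) and Grik5 (-0.21 ± 0.06), and the kinase Camk2a (-0.23 ± 0.06). The count for glutamate receptors and postsynaptic scaffolds was 0 under normexp background correction, under median scaling and without the pair of blood-rich controls, and 0 to 5 when 1 array was left out. Of 25 potassium channels 1 rose and 1 fell, against 1.92% of all genes higher and 2.91% lower. Kcnh5 rose by 0.42 ± 0.08, with 0.72 in SAM/P-8 and 0.12 in SAM/R-1. Among 19 genes of GABA synthesis, transport and receptors and 15 neuropeptide genes limma called none. The receptor genes Gabra2 and Npy2r had 0.15 ± 0.06 (adjusted p = 0.145) and -0.31 ± 0.11 (adjusted p = 0.109), and 3 in each list had an unadjusted p under 0.05. Of 16 interferon response genes 1 rose, Irf9 (0.32 ± 0.07), against 1.92% of all genes higher. Of 13 antigen presentation genes 1 fell, B2m (-0.17 ± 0.04), against 2.91% of all genes lower. B2m lost its call when any of 14 of the 16 arrays was left out, and its other probe had -0.09 ± 0.04 (adjusted p = 0.197). Among 16 amyloid and tau genes and 15 of neurotrophin and insulin signalling limma called none, with adjusted p-values from 0.102 upwards and unadjusted p under 0.05 for 3 and 2, all by the brightest probe. A less bright probe of the tau kinase gene Gsk3b rose by 0.26 ± 0.05 (adjusted p = 0.0227).

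Markers of cell types and of tissue beside the hippocampus were read the same way. Over all genes 1.92% rose and 2.91% fell, while 27.6% were positive in both strains and 41.3% negative in both. Among excitatory hippocampal neurons 1 of 16 genes fell, Spink8 (-0.38 ± 0.10, adjusted p = 0.0488), with a median of -0.16 and 10 negative in both strains. Of 14 astrocyte, 14 oligodendrocyte and 17 microglia markers limma called none, with medians of -0.02, 0.04 and -0.06 and unadjusted p under 0.05 for 2, 2 and 3, by the brightest probes. Less bright probes passed for the astrocyte gene Glul (0.20 ± 0.05, adjusted p = 0.0444) and for the microglia genes Fcrls (-0.24 ± 0.06, adjusted p = 0.0397) and Aif1 (-0.19 ± 0.05, adjusted p = 0.0427). Of 11 markers of newborn neurons and dividing cells Mcm3 rose by 0.24 ± 0.06, and of 20 of endothelium and pericytes Rgs5 rose by 0.27 ± 0.07. Spink8 and Rgs5 each lost their call when any of 13 of the 16 arrays was left out, and Mcm3 with any of 6. Of 18 markers of meninges and fibroblasts limma called none (4 at an unadjusted p under 0.05), with 15 positive in both strains and a median of 0.22. Of 11 choroid plexus markers limma called none (0 at an unadjusted p under 0.05), all 11 negative in both strains with a median of -0.65. Ttr, the transthyretin gene that defines choroid plexus, spread widely within groups: its 4 levels in SAM/R-1 CCH were 2.94, -3.31, -1.42 and 2.88. Of 12 striatum markers limma called none (0 at an unadjusted p under 0.05), with medians of 0.91 in SAM/P-8 and -0.04 in SAM/R-1, and of 13 of neocortex and thalamus none (3 at an unadjusted p under 0.05), with a median of 0.18 and 8 positive in both strains, against 27.6% of all genes. The neocortex and thalamus score lay between 0.11 and 0.20 on the SAM/R-1 CCH arrays and between -0.19 and 0.09 on the SAM/R-1 controls, without overlap. In SAM/P-8 it lay between -0.21 and 0.18 with CCH and between -0.28 and 0.00 without, with overlap. The part of this score in the clock and activity-induced differences was not tested. The part of these tissues in the shared differences was not tested.

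**Figure D5:**
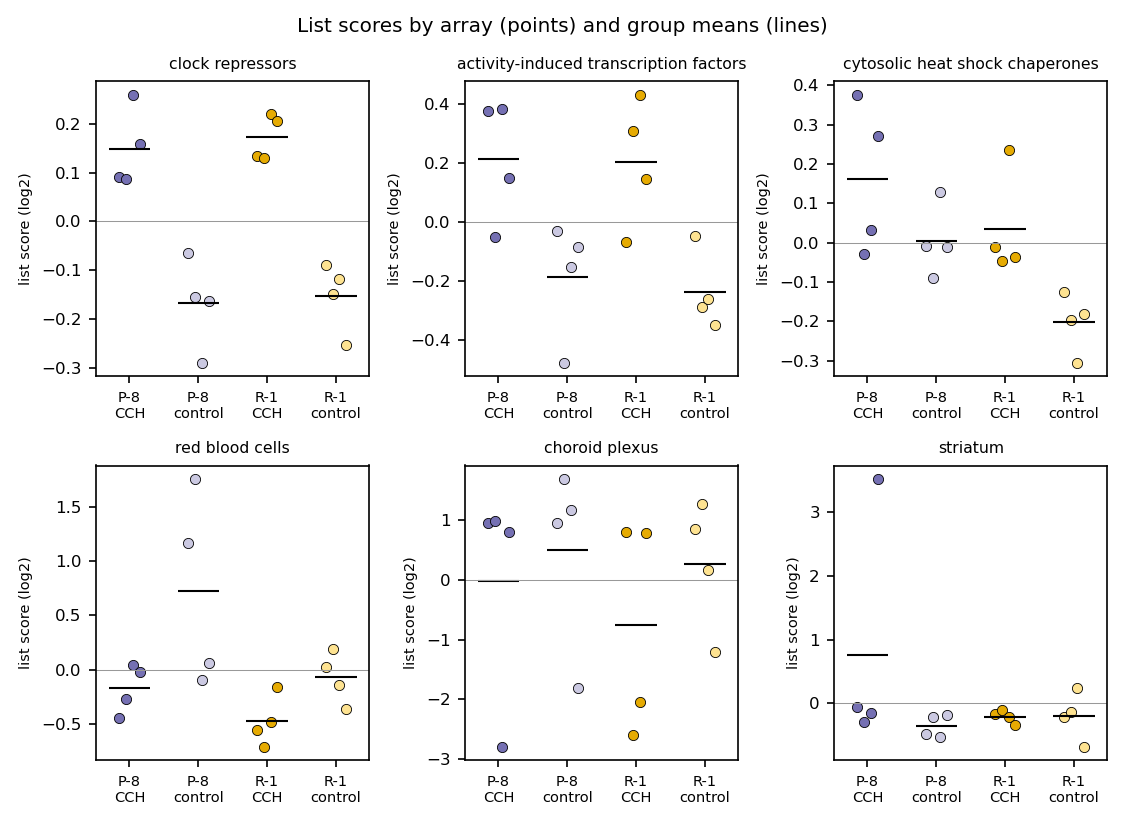
Score of 6 gene lists on each array (points, log2) and mean of each group (lines), each gene being centred on its own mean. The 8 CCH arrays lie above the 8 controls for clock repressors, 2 control arrays of SAM/P-8 stand high for red blood cells, choroid plexus varies within every group, and 1 CCH array of SAM/P-8 stands at 3.53 for striatum.

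One large difference belonged to SAM/P-8 rather than to both strains. AY761185, a defensin-related gene chosen after its values were seen, had the largest average fall among the probes called, 1.64 ± 0.17. It fell by 2.93 ± 0.23 in SAM/P-8 and had -0.36 ± 0.23 in SAM/R-1, and the strains differed by -2.58 (adjusted p = 0.00635). Its levels were -1.95 to -2.19 in SAM/P-8 controls and between -5.56 and -3.998 on the other 12 arrays.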

How the data were processed

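Total RNA of the hippocampus of 16 samples was labelled with Cy3 and hybridised to one-colour Agilent mouse arrays, and RNA integrity numbers were above 9, per the labels' protocols. The deposited scanner files hold spot intensity values (processed, median and local background signals) and 0 or 1 flags for spots well above background, non-uniform or saturated. Per the file headers the software was Agilent Feature Extraction 9.5.3.1; it subtracted background and left arrays unscaled against each other. The authors' deposited table holds log2 values centred on the median of each probe. It correlated at 0.9998 or more with the scanner values centred likewise, its column medians lay between -0.04 and 0.04, and it served as an alternative; how it was scaled is not given in the sources used here.

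Here log2 of the processed signal of non-control spots minus the array's 75th percentile was used. The 187 non-uniform spots were left out, the 2 saturated ones kept, and spots of 1 probe averaged. Probes well above background on all 16 arrays were kept. R 4.3.3 and limma 3.58.1 fitted the 4 group means (12 residual degrees of freedom), and the shared effect was the mean of the within-strain differences, with Benjamini-Hochberg adjustment over 26416 probes and a threshold of 0.05. Of 41174 probes, 24844 carried 1 gene symbol and 16330 are unnamed here. A gene is given by its brightest probe. The fit was tested on simulated data.

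The members and the 34 gene lists were chosen with earlier results of these data known. Named genes were the 15 largest increases and 15 largest decreases past the threshold without overlap in either strain, and up to 4 called members of each list or the 2 of smallest p. The following were named after their values were seen: S100a9, Gem, Fn1, Hspa1a, Dnajb1, Hspb1, AY761185, Bhlhe41, Per3, Cry2, Junb, Egr1, Fosl2, Ier5, Klf10, Npas4, Maff, Dbp, Alas2, Hba-a1 and Hbb-bt, less bright probes of list members, and list members given as values past no threshold. Alternatives were normexp background correction (offset 50), quantile, median and the authors' scaling, other filters, an additive and an intensity-trend fit, array weights, the replicate number and the slide as blocks, slide means, and leaving out arrays. Slide means and the fit without the blood-rich arrays were chosen after seeing the data. Some genes that the naming rule gave are not reported here.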

Additional observations from a re-analysis of the deposited data

Results flagged for a closer look

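Among 412 groups of 4 arrays examined, 25 held an array whose distance from its nearest neighbour took up most of the group's range (Dixon's test), and chance alone gives about 1 in 20. Among genes in SAM/P-8 CCH, array 3 stood apart for Ciart (-1.17) and Cdhr5 (-4.23), array 2 for Hlf (1.52), and array 4 for Pyy (-4.70), Tmc8 (-4.70) and Mrps34 (3.85). In SAM/R-1 CCH, array 1 stood apart for Nr4a1 (5.18) and Pyy (-4.28), and array 3 for Mdga1 (-0.57). In SAM/R-1 control, array 1 stood apart for Mdga1 (-0.27) and Cox7a2 (5.44), array 3 for Rad52 (-0.049), and array 4 for Galnt17 (2.01) and Psmc5 (3.40).

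Among list scores, array 4 of SAM/P-8 CCH stood apart for striatum (3.53), GABA synthesis, transport and receptors (0.081) and mitochondrial ribosomal proteins (-0.10), and array 3 for choroid plexus (-2.80). Array 4 of SAM/P-8 control stood apart for the interferon response (0.10) and for neurotrophin and insulin signalling (-0.16). In SAM/R-1 CCH, array 1 stood apart for endothelium and pericytes (-0.015), array 2 for the respiratory chain and ATP synthase (0.052) and for proteasome subunits (0.027), and array 3 for cytosolic heat shock chaperones (0.24). Array 1 of SAM/R-1 control stood apart for clock activators and output factors (0.0034).

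The test of the difference between the strains (limma) passed for Stc1, at -0.73 (adjusted p = 0.0246), and for AY761185, at -2.58 (adjusted p = 0.00635), where a negative value is a larger fall in SAM/P-8.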

How the results depend on the processing

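Against 633 probes higher and 647 lower in the average, the counts were 145 and 210 with normexp, 278 and 220 under median scaling, 1143 and 1454 with array weights, 2297 and 2741 with the slide as a random block (its estimated correlation was -0.11, below 0 as each slide holds 1 group, which raises the counts by construction and is no sign of stability), 0 and 0 over slide means, and 176 and 155 without the pair of blood-rich arrays (the last 2 chosen after seeing the data). Without a filter 2527 probes were lower. With 1 array left out, 156 to 940 were higher and 106 to 1266 lower. Within SAM/P-8, against 215, the count was 0 with normexp, 127 under quantile normalization, 64 under median scaling, 325 with an intensity trend, 16 without the blood-rich arrays and 33 to 445 with 1 array left out. Within SAM/R-1, against 17, it was 0 with normexp, 3 under quantile normalization, 11 under median scaling, 33 with the filter on 1 group, 46 without a filter, 6 with the trend, 63 with array weights and 0 to 19 with 1 array left out. For the difference between the strains, against 17, it was 0 with normexp, 50 with the filter on 1 group, 51 without a filter and 9 to 19 with 1 array left out. Probes without overlap numbered 111 higher and 92 lower under median scaling, and 369 lower with normexp. Under normexp 6 genes turned positive: Stc1 (0.078), Cdhr5 (0.058), Pyy (0.076), Tmc8 (0.13), Cyp27b1 (0.16) and Defb3 (0.17). The cause of these changes was not tested. With the replicate block the counts were 506 higher, 486 lower, 100 within SAM/P-8, 3 within SAM/R-1 and 11 for the difference. Same-numbered arrays deviated together with r from -0.31 to 0.35, over 0.1 in 7 of 24 pairs, and 2 of 16 arrays lay closest to their own number. These values do not settle whether the numbers pair the samples, as the number was also the array's position on its slide on all 16 arrays. The number of arrays, 4 a group on 1 slide each, limits these results.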
